A study of Mus musculus with 8 samples.

Results

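The 10 genes described here are Atf4 and 9 genes of the integrated stress response and the unfolded protein response: Atf3, Ddit3, Trib3, Asns, Chac1, Sesn2, Hspa5, Xbp1 and Dnajb9. They were chosen by symbol from the 27179 genes measured by RNA sequencing. All 10 were among the 13262 genes that reached a level of 1 CPM (read counts scaled to library size) in 4 or more of the 8 tumors, and only those were tested. The tumors were subcutaneous C26 colon carcinomas in male CD2F1 mice, 4 grown from cxC26 scr cells and 4 from cxC26 IL6KOs1 cells. C26 is a transplantable mouse colon carcinoma, and cxC26 is its cachexia-inducing line. Both kinds of cell had passed through CRISPR/Cas9 vector selection. The cxC26 scr cells carry a scrambled guide RNA, and the cxC26 IL6KOs1 cells are 1 subclone with a disrupted Il6 gene. Tumors of both groups were taken once the mouse had lost over 15% of its weight. In the study the subclone was inoculated in larger number and took longer to grow, so the loss of IL-6, the clone, the inoculum and the time of growth cannot be told apart in this comparison.

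Each tumor had between 14158989 and 17048062 reads on genes, and the ranges of the groups overlapped. For Il6 itself, 326 to 438 reads were counted per cxC26 scr tumor and 56 to 86 per cxC26 IL6KOs1 tumor, so the targeted gene was lower in every tumor labelled as a knockout. Of 7 colonic epithelial markers, Krt20 had at least 17390 reads in every tumor, whereas Epcam, Krt8 and Vil1 had at most 15 reads in any tumor and did not pass the filter. For Cdx2, an intestinal transcription factor, 17 to 34 reads were counted per cxC26 scr tumor and 0 or 1 per cxC26 IL6KOs1 tumor. Krt18 and Cdh1 went the other way, with 21 to 30 against 140 to 282 reads and 17 to 37 against 45 to 87 reads. Each group rests on 1 line or subclone, so p-values measure the spread between its tumors and not between clones.

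The integrated stress response starts with kinases that phosphorylate the initiation factor eIF2 when amino acids are short, when proteins misfold in the endoplasmic reticulum (ER), or under other stresses. General translation then slows, while the Atf4 mRNA is translated more, and the ATF4 protein turns on genes for amino acid supply, redox balance and, under lasting stress, cell death. The unfolded protein response has ATF4 as one branch and the sensors IRE1, which splices the Xbp1 mRNA, and ATF6 as the others, and these raise ER chaperones and degradation factors. ATF4 is controlled mainly in translation and XBP1 mainly by splicing, neither of which a count of reads per gene can show.

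ATF4 binds with C/EBP partners at the CARE motif (TGATGNAA), and ATF6 and XBP1 act through the ER stress element (ERSE, CCAAT and CCACG with 9 bases between them). The promoter windows of all 10 genes were found in the RefSeq table for GRCm38.p6, each from 250 bases before to 50 bases after the start of the gene. A CARE motif on either strand was present in 4 of the 10, against 3.97% of the 32851 windows in the table, and an ERSE was present in 1, against 0.119%. The sequences below are shown because they carry the elements through which these factors are known to act. They are written 5′ to 3′ on the strand of the gene, with the motif in capitals, and the stretch for Trib3 is shorter because its motif begins 15 bases into the transcribed part. The Chac1 stretch is chr2:119350992-119351116 (plus strand), the Asns stretch chr6:7693210-7693292 (minus), the Trib3 stretch chr2:152344028-152344057 (minus), the Atf3 stretch chr1:191183376-191183503 (minus), and the Hspa5 stretch, which holds the ERSE, chr2:34771965-34772089 (plus).
Chac1: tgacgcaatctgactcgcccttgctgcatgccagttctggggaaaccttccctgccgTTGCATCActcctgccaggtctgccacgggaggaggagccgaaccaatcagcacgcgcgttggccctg
Asns: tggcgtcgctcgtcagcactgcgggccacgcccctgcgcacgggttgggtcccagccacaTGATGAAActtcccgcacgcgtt
Trib3: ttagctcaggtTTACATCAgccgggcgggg
Atf3: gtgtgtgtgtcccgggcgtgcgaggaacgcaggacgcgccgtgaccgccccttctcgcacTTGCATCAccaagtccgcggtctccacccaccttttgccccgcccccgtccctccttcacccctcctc
Hspa5: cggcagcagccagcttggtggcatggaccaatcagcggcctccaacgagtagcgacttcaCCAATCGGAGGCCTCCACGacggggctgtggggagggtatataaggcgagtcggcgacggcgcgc
No window of the 10 genes held the CRE (TGACGTCA, in 1.79% of all windows), the UPRE (TGACGTGG, in 0.676%) or the ERSE-II (ATTGG and CCACG with 1 base between them, in 0.0365%), where CRE and UPRE share their first 6 letters. These letters say only what is in the window, and the other 5 genes, Atf4, Ddit3, Sesn2, Xbp1 and Dnajb9, held none of the 5 motifs there.

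In the cxC26 IL6KOs1 tumors, 6 of the 10 genes were higher, 0 were lower and 4 did not pass the test (limma, Benjamini-Hochberg adjusted p under 0.05 over all 13262 genes). The genes that rose were Atf4, Ddit3, Asns, Chac1, Hspa5 and Dnajb9. Across all tested genes 39.8% were called, 19.1% higher and 20.7% lower, so many genes of any kind moved between these groups. The median log2 fold change was 0.51 over the 10 genes and -0.00289 over all tested genes. In bulk tumors a change in the number of cells of a type and a change of RNA per cell cannot be told apart.

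Atf4 encodes the central transcription factor of the response. It lies on chromosome 15 of GRCm38.p6 from 80255184 to 80257545 (plus strand) and has 3 exons. Its level was 7.76, 7.93, 7.68 and 7.77 log2 CPM in cxC26 scr tumors 1 to 4 and 8.38, 8.24, 8.03 and 8.08 log2 CPM in cxC26 IL6KOs1 tumors 1 to 4. Every cxC26 IL6KOs1 tumor was therefore above every cxC26 scr tumor, and the spread within each group was small. The mean rose from 7.79 ± 0.10 to 8.18 ± 0.16 log2 CPM (SD, n = 4 each), a log2 fold change of 0.40 (standard error 0.0961, limma adjusted p = 0.00699) or 31.5% more. A permutation test of this value (exact, two-sided) gave p = 0.0286, the smallest that 4 tumors against 4 allow. The tested genes of chromosome 15 had a median log2 fold change of 0.14, and with each tumor re-centred on the median of the chromosome the log2 fold change of Atf4 was 0.31 and was still called.

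**Figure D1:**
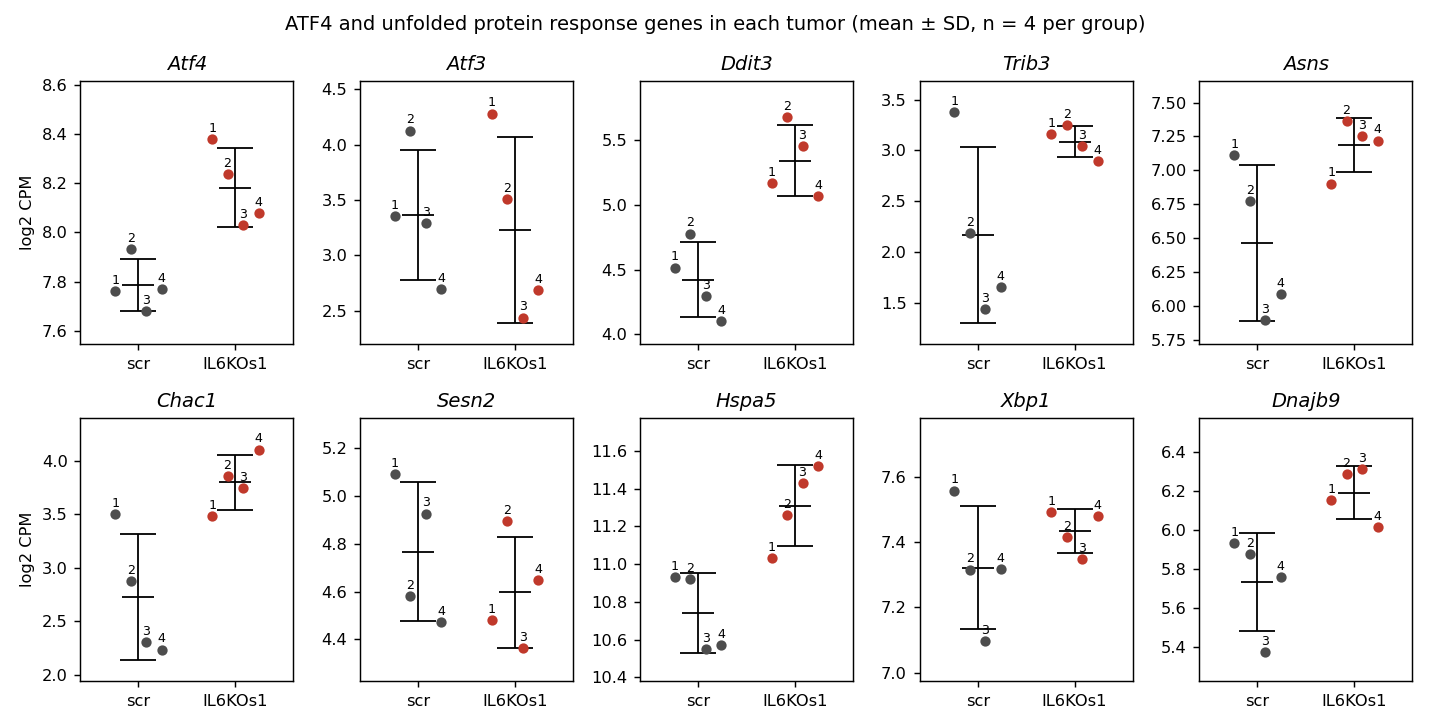
Level of each of the 10 genes in each tumor, in log2 CPM on the vertical axis of each panel (axes differ and do not start at 0), with points numbered by tumor, cxC26 scr in grey and cxC26 IL6KOs1 in red, and bars for the mean ± SD of 4 tumors. Atf4, Ddit3, Hspa5 and Dnajb9 do not overlap between the groups, and cxC26 scr tumor 1 is the highest of its group for Trib3, Asns, Chac1, Sesn2, Hspa5, Xbp1 and Dnajb9.

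Ddit3 and Atf3 encode stress transcription factors that lie downstream of ATF4. Ddit3 encodes CHOP, which drives death programs under lasting ER stress. It had 4.52, 4.78, 4.30 and 4.10 log2 CPM in cxC26 scr tumors 1 to 4 and 5.17, 5.68, 5.46 and 5.07 log2 CPM in cxC26 IL6KOs1 tumors 1 to 4, without overlap. Its log2 fold change of 0.92 (standard error 0.166, limma adjusted p = 0.00124; exact permutation p = 0.0286) was a rise of 1.89-fold. Ddit3 lies on chromosome 10 (127290793 to 127296291, plus strand, 4 exons), where the median tested gene was itself 0.32 higher on the log2 scale. With the chromosome median removed from each tumor the log2 fold change was 0.56, and it still passed the test. In the annotation Ddit3 overlaps Mars1 and Mbd6, and the named library kit does not mark strand, so reads of these genes may be mixed.

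Atf3, an early stress-induced repressor and activator, did not pass the test. It had 3.35, 4.13, 3.29 and 2.69 log2 CPM in cxC26 scr tumors 1 to 4 and 4.28, 3.51, 2.44 and 2.69 log2 CPM in cxC26 IL6KOs1 tumors 1 to 4. The groups covered nearly the same range, which was wide in both. The log2 fold change was -0.14 with a 95% interval from -0.98 to 0.70 (limma adjusted p = 0.803), an interval that includes changes of either sign. Atf3 lies on chromosome 1, whose tested genes had a median of -0.34, and its value was 0.19 after re-centring on the chromosome median. With 1 tumor left out Atf3 ranged from -0.49, without cxC26 IL6KOs1 tumor 1, to 0.13, without cxC26 IL6KOs1 tumor 3.

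Trib3, Chac1, Asns and Sesn2 are targets of ATF4 with different tasks. Chac1 encodes an enzyme that degrades glutathione, and it had the largest rise of the 10 genes. Its level was 3.50, 2.87, 2.31 and 2.24 log2 CPM in cxC26 scr tumors 1 to 4 and 3.48, 3.86, 3.75 and 4.10 log2 CPM in cxC26 IL6KOs1 tumors 1 to 4. The groups overlapped only through cxC26 scr tumor 1, which was just above cxC26 IL6KOs1 tumor 1. Chac1 changed by a log2 fold of 1.07 (standard error 0.259, limma adjusted p = 0.00686; exact permutation p = 0.0571), and it lay between 0.90 and 1.32 with each tumor left out in turn.

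Asns encodes asparagine synthetase and is a classic target of ATF4 under amino acid shortage. It had 7.11, 6.78, 5.89 and 6.08 log2 CPM in cxC26 scr tumors 1 to 4 and 6.90, 7.37, 7.26 and 7.22 log2 CPM in cxC26 IL6KOs1 tumors 1 to 4. Here too the overlap came from cxC26 scr tumor 1. The log2 fold change of 0.72 (standard error 0.228, limma adjusted p = 0.0264; exact permutation p = 0.0571) was called, but the call depended on single tumors. Without cxC26 scr tumor 3 the adjusted p from limma was 0.0761, and without tumor 4 it was 0.0818. It was 0.0629, 0.0601 and 0.0512 without cxC26 IL6KOs1 tumors 2, 3 and 4.

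Trib3 encodes a pseudokinase that feeds back on ATF4. It had 173, 73, 38 and 48 reads in cxC26 scr tumors 1 to 4 and 145, 131, 129 and 107 reads in cxC26 IL6KOs1 tumors 1 to 4, or 3.38, 2.18, 1.44 and 1.66 against 3.16, 3.25, 3.04 and 2.89 log2 CPM. The cxC26 IL6KOs1 tumors were close together, and cxC26 scr tumor 1 was above them all while the other 3 were below. Its log2 fold change was 0.92 with a 95% interval from 0.17 to 1.68 (limma adjusted p = 0.0521), which did not pass. Without cxC26 scr tumor 1 it was 1.33 and did pass (limma adjusted p = 0.00111).

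Sesn2 encodes sestrin 2, a leucine sensor that restrains mTORC1 and answers to both ATF4 and p53. It had 5.09, 4.58, 4.93 and 4.47 log2 CPM in cxC26 scr tumors 1 to 4 and 4.48, 4.90, 4.36 and 4.65 log2 CPM in cxC26 IL6KOs1 tumors 1 to 4. The groups overlapped almost fully. Sesn2 had a log2 fold change of -0.17 with a 95% interval from -0.52 to 0.18 (limma adjusted p = 0.418). It was -0.06 without cxC26 scr tumor 1, -0.27 without cxC26 scr tumor 4, and -0.27 and -0.09 without cxC26 IL6KOs1 tumors 2 and 3.

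Hspa5, Dnajb9 and Xbp1 represent the ER arms of the unfolded protein response. Hspa5 encodes BiP, the main ER chaperone and the regulator of the 3 ER stress sensors. Its level was 10.93, 10.92, 10.55 and 10.57 log2 CPM in cxC26 scr tumors 1 to 4 and 11.03, 11.26, 11.43 and 11.52 log2 CPM in cxC26 IL6KOs1 tumors 1 to 4. The groups did not overlap, although cxC26 IL6KOs1 tumor 1 was close to the upper cxC26 scr tumors. Hspa5 changed by a log2 fold of 0.57 (standard error 0.147, limma adjusted p = 0.00982; exact permutation p = 0.0286), or 48.3% more. Under quantile normalization it was 0.37 and still called. The gene, on chromosome 2 from 34772090 to 34776529 (plus strand, 9 exons), overlaps Rabepk in the annotation, and its promoter is the one with the ERSE shown above.

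Dnajb9 encodes ERdj4, a co-chaperone of BiP and a target of XBP1. It had 5.93, 5.88, 5.38 and 5.76 log2 CPM in cxC26 scr tumors 1 to 4 and 6.16, 6.29, 6.31 and 6.01 log2 CPM in cxC26 IL6KOs1 tumors 1 to 4. All 4 cxC26 IL6KOs1 tumors were higher, by a log2 fold change of 0.46 (standard error 0.125, limma adjusted p = 0.0131; exact permutation p = 0.0286).

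Xbp1 had 7.56, 7.32, 7.10 and 7.32 log2 CPM in cxC26 scr tumors 1 to 4 and 7.49, 7.42, 7.35 and 7.48 log2 CPM in cxC26 IL6KOs1 tumors 1 to 4. These ranges overlapped, and the log2 fold change was 0.11 with a 95% interval from -0.10 to 0.32 (limma adjusted p = 0.387). It was 0.19 without cxC26 scr tumor 1 (limma adjusted p = 0.0942), 0.04 without cxC26 scr tumor 3, and 0.23 after re-centring on the chromosome median (limma adjusted p = 0.0774). The spliced and unspliced forms of Xbp1 are counted together here.

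Over the 10 genes the values of 4 did not overlap with the cxC26 IL6KOs1 tumors higher, and 0 did not overlap with them lower, where 17.8% and 19.3% of all tested genes did so (37.1% in either direction). With a 2-fold minimum added, only Chac1 remained, and 6.25% of all tested genes passed that limit upward and 3.93% downward. Removal of the chromosome medians left 7 of the 10 higher and 0 lower, with Trib3 added at an adjusted p of 0.0439 (limma). Over all 12982 genes in that setting 2101 were higher and 2145 were lower.

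**Figure D2:**
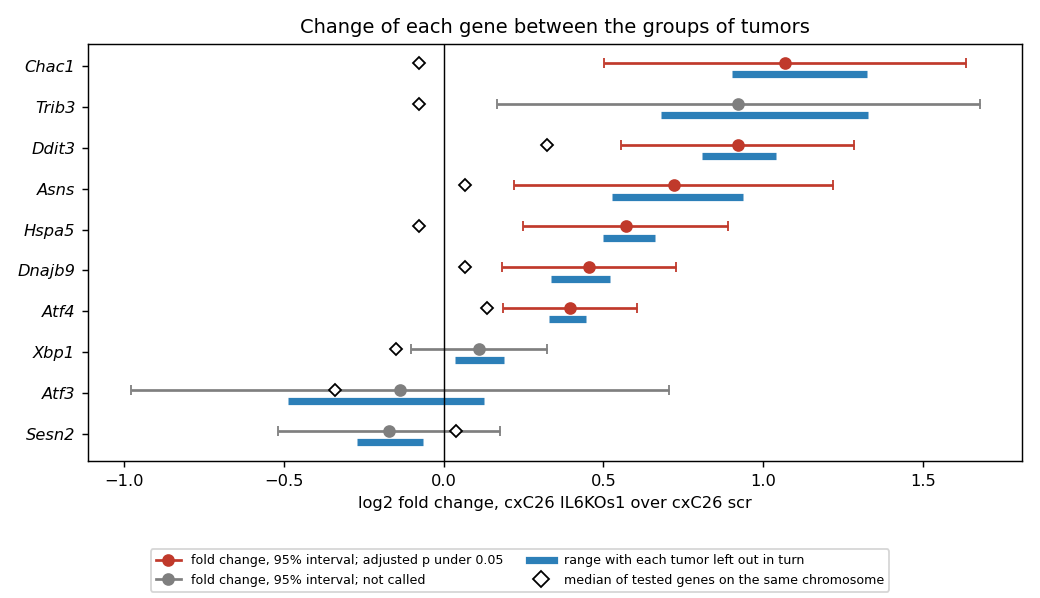
Log2 fold change of each gene, cxC26 IL6KOs1 over cxC26 scr, on the horizontal axis, with its 95% interval from limma (red where the adjusted p was under 0.05), the range with each tumor left out in turn in blue, and the median of all tested genes on the same chromosome as an open diamond. Chac1 has the highest value at 1.07, Sesn2 the lowest at -0.17, and the range of Atf3 crosses 0.

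Levels of different genes were compared per kilobase of transcript. In the cxC26 scr tumors Hspa5 had the highest level, at 8.87 ± 0.21 log2 CPM per kilobase (SD, n = 4), followed by Atf4 at 7.0 ± 0.10, Xbp1 at 6.23 ± 0.19 and Asns at 5.45 ± 0.58. Ddit3 at 4.59 ± 0.29 and Dnajb9 at 4.44 ± 0.25 came next, and Sesn2 at 2.97 ± 0.29, Atf3 at 2.38 ± 0.59, Chac1 at 2.02 ± 0.59 and Trib3 at 1.15 ± 0.87 were the lowest on this scale. Neighbours from Asns to Dnajb9 and from Sesn2 to Trib3 differed by less than their summed SDs, whereas the chaperone Hspa5, Atf4 and Xbp1 each stood apart from the next gene. In the cxC26 IL6KOs1 tumors Hspa5, Atf4 and Xbp1 again led, at 9.44, 7.40 and 6.34 log2 CPM per kilobase, and Chac1, at 3.09, stood above Sesn2, Atf3 and Trib3 in place of below Sesn2 and Atf3. In these tumors Xbp1 and Asns differed by less than their summed SDs, as did the neighbours from Chac1 to Trib3.

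The tumors of the control group were not alike in these genes. cxC26 scr tumor 1 had the highest level of its group in 7 of the 10 genes, and tumor 2 had it in the other 3, Atf4, Atf3 and Ddit3. Tumors 3 and 4 shared the lowest levels, with 6 and 4 genes. The same tumor 1 led its group in 12 of 13 tested genes of amino acid and one-carbon synthesis (92.3%), in 11 of 12 cytosolic tRNA synthetases (91.7%) and in 8 of 9 amino acid transporters (88.9%), compared with 33.4% of all tested genes. This pattern was noticed in the values, and it is given as a description. Among the cxC26 IL6KOs1 tumors the highest level of the 10 genes was in tumor 1 for 3, in tumor 2 for 4, in tumor 3 for 1 and in tumor 4 for 2. Their tumor 2 led its group in the tested synthesis genes other than Psat1, Aldh1l2 and Pycr1. It also led in the transporters other than Slc7a1, Slc1a5 and Slc38a2. The share of all tested genes in which this tumor led its group was not counted. In the tRNA synthetases the highest level was spread over cxC26 IL6KOs1 tumors 1, 2 and 4.

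**Figure D3:**
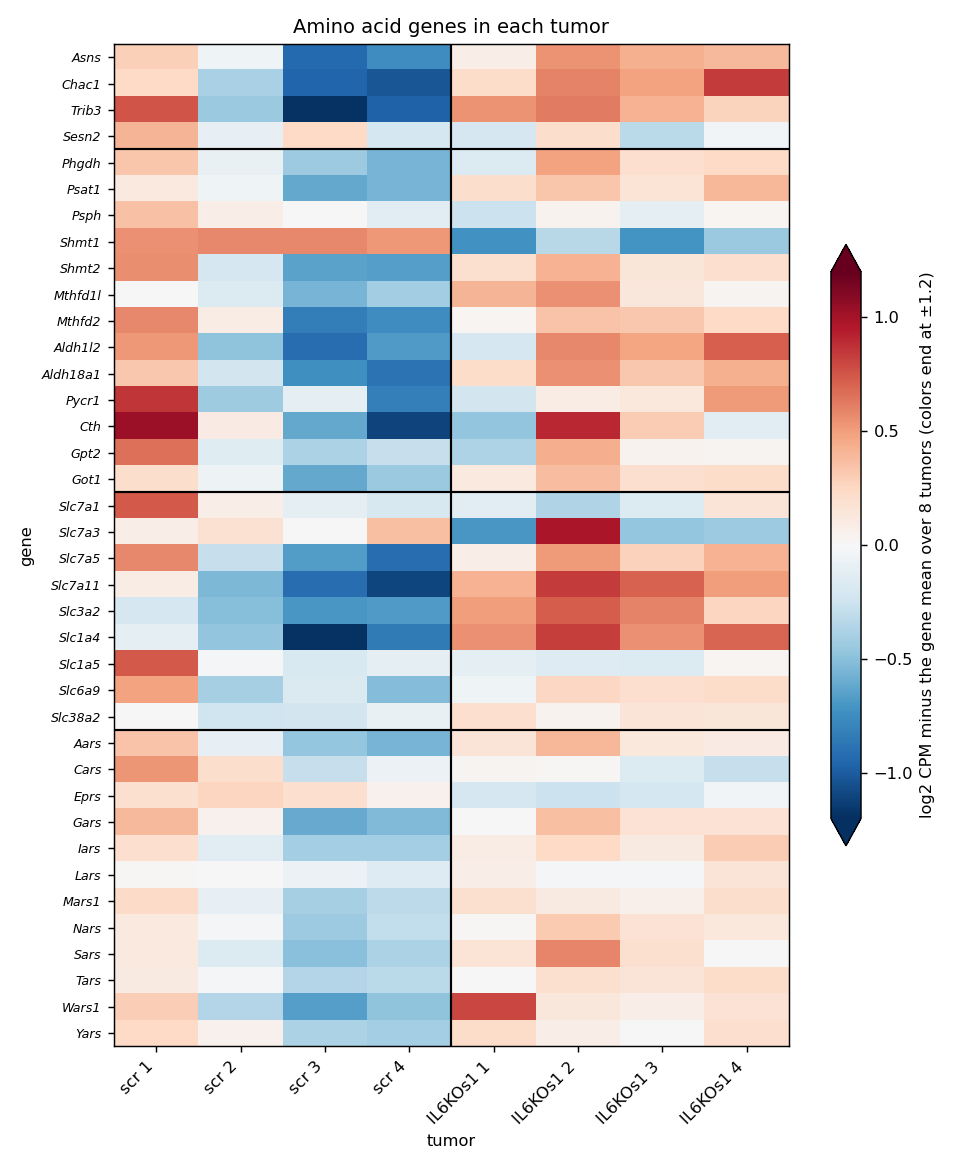
Level of Asns, Chac1, Trib3 and Sesn2 and of the tested genes of amino acid synthesis, transport and tRNA charging in each tumor, as log2 CPM minus the mean of the gene over 8 tumors (red above, blue below). cxC26 scr tumor 1 is above the other cxC26 scr tumors in most rows and close to the cxC26 IL6KOs1 tumors, whereas cxC26 scr tumors 3 and 4 are mostly blue.

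The wider pathway was described with 12 lists of 145 genes, of which 140 were tested. Of these, 38 were higher (27.1%, against 19.1% of all tested genes) and 14 were lower (20.7% of all tested genes were). The position of the genes moved with these counts. All 7 tested pathway genes on chromosome 1, whose median was -0.34, were lower. On chromosomes 10 and 19, whose medians were 0.32 and 0.33, 11 of 17 were higher and 1 was lower. Whether these counts differ from those of other genes on the same chromosomes was not tested. On the other chromosomes 27 of 116 were higher and 6 were lower. Counts after re-centring on the chromosome median are therefore given with each list, and stand beside 2101 higher and 2145 lower of 12982 genes. Without re-centring the counts of each list stand beside 19.1% higher and 20.7% lower of all tested genes, and several lie near those shares.

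**Figure D4:**
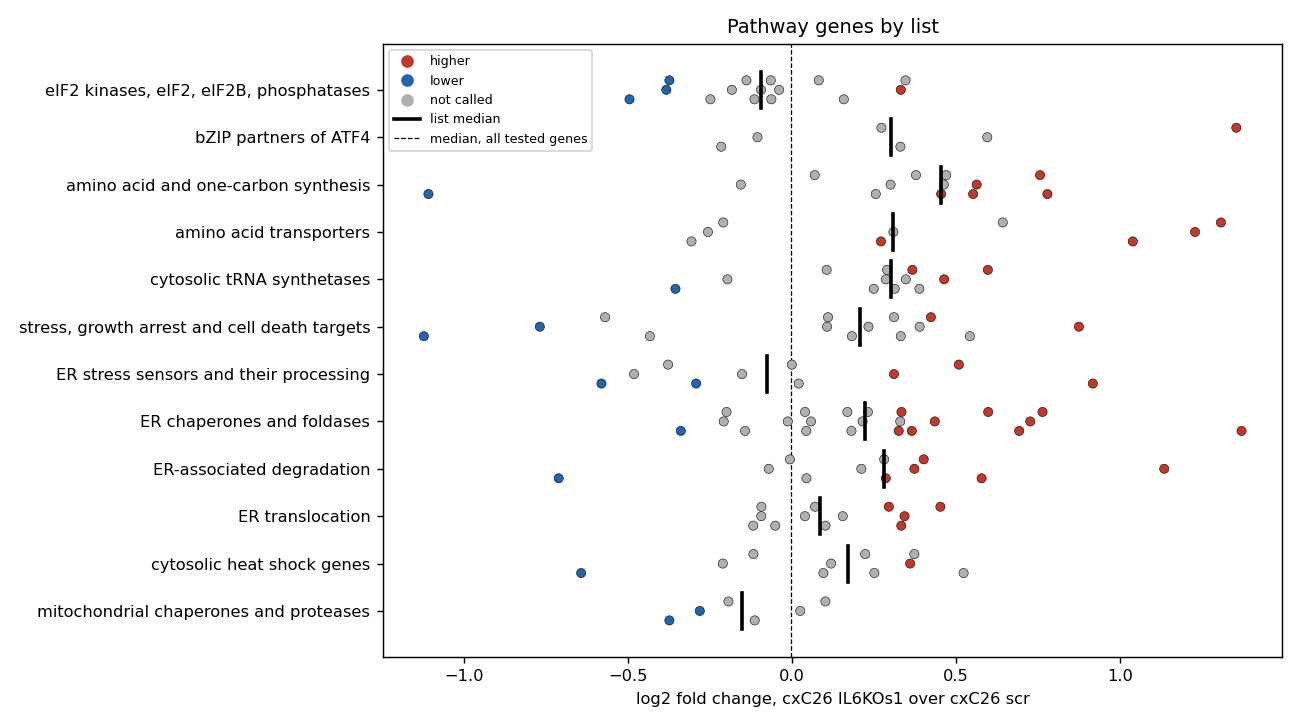
Log2 fold change of each tested gene in 12 pathway lists, cxC26 IL6KOs1 over cxC26 scr, with genes called higher in red, lower in blue and not called in grey, a black bar at the median of each list and a dashed line at the median of all tested genes. The medians lie between -0.15 for mitochondrial chaperones and 0.46 for amino acid synthesis.

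Upstream of ATF4, the eIF2 kinases, eIF2, eIF2B and phosphatase subunits had 1 gene higher and 3 lower of 15, with a median of -0.09. Eif2b5, a catalytic subunit of the exchange factor eIF2B, rose by 0.33 (limma adjusted p = 0.0281). Eif2ak1, the heme-regulated eIF2 kinase, fell by 0.50 (limma adjusted p = 0.000791), and Eif2b4, another eIF2B subunit, fell by 0.38 (limma adjusted p = 0.0197; 0.0514 without cxC26 scr tumor 2). Both lie on chromosome 5, whose tested genes had a median of -0.24, and after re-centring Eif2ak1 had -0.25 and was still called while Eif2b4 had -0.13 and was not. The third lower gene, Ppp1r15b, a subunit of the eIF2 phosphatase, was named after its values were seen, and its log2 fold change was -0.37 on chromosome 1 and -0.04 after re-centring. The call of Eif2b5 was lost without cxC26 scr tumor 3 or 4 or cxC26 IL6KOs1 tumor 3 or 4, when 0 of the list were higher, and without cxC26 scr tumor 1 or cxC26 IL6KOs1 tumor 1 the count was 2. After re-centring on chromosome medians 0 were higher and 2 were lower, Eif2ak1 and Eif2b2, the latter named after its values were seen (-0.35, and -0.25 without re-centring, not called).

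Among 6 bZIP partners of ATF4, 1 was higher and 0 were lower (median 0.30). It was Jdp2, a repressor of the AP-1 family, with 3.42 to 4.27 log2 CPM in the cxC26 scr tumors and 4.94 to 5.23 in the cxC26 IL6KOs1 tumors (log2 fold change 1.36, standard error 0.167, limma adjusted p = 0.000112). The other 5, the 4 C/EBP genes on the list and Atf5, did not pass. Without cxC26 scr tumor 1 or cxC26 IL6KOs1 tumor 4 the count was 2, and without the latter 1 gene was also called lower. With chromosome medians removed 3 were higher, Jdp2 (1.26) and, named after their values were seen, Cebpa (0.61) and Atf5 (0.88). The last 2 lie on chromosome 7, whose tested genes had a median of -0.27.

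The targets that supply amino acids had a list median of 0.46 for synthesis (0.18 after re-centring on chromosome medians), where 5 of 13 tested genes were higher and 1 was lower. Those higher were Psat1 (log2 fold change 0.55, limma adjusted p = 0.0135), an enzyme of serine synthesis, and Mthfd1l (0.56, limma adjusted p = 0.00869), a mitochondrial folate enzyme, together with Aldh1l2, Aldh18a1 and Got1, named after their values were seen. Shmt1, the cytosolic serine hydroxymethyltransferase, fell from 5.32 to 5.38 log2 CPM in the cxC26 scr tumors to 4.08 to 4.48 in the cxC26 IL6KOs1 tumors (log2 fold change -1.11, limma adjusted p = 2.8e-05). All 5 higher genes lie on chromosomes 10 and 19, and after re-centring 0 were higher and Shmt1 was still lower. Without cxC26 scr tumor 1 the count of higher genes was 8, without cxC26 scr tumor 3 it was 2, and without cxC26 scr tumor 4 or cxC26 IL6KOs1 tumor 2, 3 or 4 it was 3. Cbs did not pass the filter.

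Of 9 amino acid transporters, 4 were higher and 0 were lower (median 0.31). Slc1a4, which carries serine and alanine, had 2.65 to 3.74 log2 CPM in the cxC26 scr tumors and 4.39 to 4.67 in the cxC26 IL6KOs1 tumors (log2 fold change 1.31, standard error 0.203, limma adjusted p = 0.000493). Slc7a11, the cystine importer, had 3.14 to 4.33 against 4.66 to 5.08 log2 CPM (log2 fold change 1.23, standard error 0.222, limma adjusted p = 0.00122). Neither overlapped between the groups. Slc3a2, its partner subunit, and Slc38a2 were the other 2, named after their values were seen, with log2 fold changes of 1.04 (0.67 after re-centring, on chromosome 19) and 0.27. With each tumor left out in turn 3 to 6 were higher, 6 of them without cxC26 scr tumor 1, and 3 were higher after re-centring.

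Of 12 cytosolic tRNA synthetases, 3 were higher (19.1% of all tested genes were) and 1 was lower (20.7% were), with a median of 0.30. The higher genes, Iars, Sars and Wars1, were named after their values were seen, and their groups overlapped (log2 fold changes 0.37, 0.46 and 0.60). Eprs, on chromosome 1, fell by 0.36 (limma adjusted p = 0.00626), and its value was -0.03 after re-centring. With 1 tumor left out this count ranged from 0 to 9, with 9 higher without cxC26 scr tumor 1, 1 without cxC26 scr tumor 2 or cxC26 IL6KOs1 tumor 2 or 3, and 0 without cxC26 scr tumor 3 or 4. After re-centring 0 were lower and 1 was higher, Nars, which was named after its values were seen (0.39, and 0.31 without re-centring, not called). Iars, Sars and Wars1 were not called after re-centring.

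Among 14 tested targets in stress, growth arrest and cell death, 2 were higher and 2 were lower (median 0.21). Nupr1, a stress-induced chromatin protein, rose from 6.24 to 6.46 log2 CPM in the cxC26 scr tumors to 7.08 to 7.35 in the cxC26 IL6KOs1 tumors (log2 fold change 0.88, standard error 0.0894, limma adjusted p = 3.1e-05). Map1lc3b, an autophagosome gene, rose by 0.42 (limma adjusted p = 0.0065). Bcl2l11, which encodes the pro-apoptotic BIM and is a target of CHOP, fell by 1.12 on the log2 scale (limma adjusted p = 5.5e-05), and Vldlr, a lipoprotein receptor, fell by 0.77 (limma adjusted p = 0.00291). Without cxC26 scr tumor 1 or cxC26 IL6KOs1 tumor 3 the higher count was 4, and after re-centring 2 were higher and 2 were lower.

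Gdf15 and Fgf21 encode secreted targets of ATF4 that act on appetite and metabolism. Gdf15 had 3.34, 2.42, 2.50 and 1.90 log2 CPM in cxC26 scr tumors 1 to 4 and 2.77, 3.23, 2.90 and 2.60 log2 CPM in cxC26 IL6KOs1 tumors 1 to 4. The groups overlapped, again through cxC26 scr tumor 1, and the log2 fold change of 0.33 did not pass (limma adjusted p = 0.352). It was 0.60 without cxC26 scr tumor 1 (limma adjusted p = 0.0501), 0.12 without cxC26 scr tumor 4 and 0.21 without cxC26 IL6KOs1 tumor 2. Reads of Fgf21 numbered 11, 2, 1 and 0 in cxC26 scr tumors 1 to 4 and 3, 0, 3 and 7 in cxC26 IL6KOs1 tumors 1 to 4, and it did not pass the filter.

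The ER stress sensors and their processing factors moved both ways, with 3 of 10 higher, 2 lower and a median of -0.08. Rtcb, the ligase that joins spliced Xbp1, rose by 0.51 (limma adjusted p = 0.000469) on chromosome 10, but its value of 0.15 after re-centring was not called. Creb3, an ER-bound factor, rose by 0.31 (limma adjusted p = 0.0117), and Creb3l4, named after its values were seen, had a log2 fold change of 0.92 at a low level. Atf6, the sensor of the third arm, fell by 0.58 (limma adjusted p = 0.00191) on chromosome 1, but its value of -0.25 after re-centring was not called. Mbtps1, the protease that releases ATF6, fell by 0.29 (limma adjusted p = 0.0164). Without cxC26 scr tumor 3 only 1 was lower. After re-centring 2 were higher, Creb3 and Creb3l4, and 2 were lower, Mbtps1 and, named after its values were seen, Creb3l2. Ern2 and Creb3l3 did not pass the filter.

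ER chaperones and foldases were the largest list, with 9 of 22 higher, 1 lower and a median of 0.22. Sdf2l1, a BiP-associated protein, had 4.84 to 5.65 log2 CPM in the cxC26 scr tumors and 6.37 to 6.81 in the cxC26 IL6KOs1 tumors (log2 fold change 1.37, standard error 0.164, limma adjusted p = 9.4e-05). Ero1b, an ER oxidase, rose by 0.76 (limma adjusted p = 0.000942). Neither overlapped between the groups. Uggt1, which checks glycoprotein folding, was lower by 0.34 on chromosome 1 (limma adjusted p = 0.00847), with -0.01 after re-centring. The higher count was 6 to 10 with each tumor left out in turn, and 5 higher and 0 lower after re-centring.

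In ER-associated degradation 5 of 11 tested genes were higher and 1 was lower (median 0.28). Herpud1, a scaffold of the degradation complex, had 4.82 to 6.05 log2 CPM in the cxC26 scr tumors and 6.41 to 6.56 in the cxC26 IL6KOs1 tumors (log2 fold change 1.14, standard error 0.214, limma adjusted p = 0.00156). Os9, a lectin of the same route, rose by 0.58 (limma adjusted p = 0.000308) on chromosome 10, but its value of 0.22 after re-centring was not called. Edem3 on chromosome 1 fell by 0.71 (limma adjusted p = 0.00096) and was still lower after re-centring, at -0.38. Sel1l, Derl1 and Edem1, named after their values were seen, had log2 fold changes of 0.40, 0.29 and 0.37. The count was 3 without cxC26 scr tumor 2 or 3 or cxC26 IL6KOs1 tumor 3. It was also 3 after re-centring, with Herpud1 (1.08), Edem1 (0.33) and Selenos (0.49). Selenos, named after its values were seen, had 0.21 without re-centring and was not called. Derl3 did not pass the filter. The promoter window of Herpud1 held both a CARE and the ERSE-II, the latter within chr8:94386317-94386428 (plus strand, capitals), with the CARE in lower case at the left end.
Herpud1: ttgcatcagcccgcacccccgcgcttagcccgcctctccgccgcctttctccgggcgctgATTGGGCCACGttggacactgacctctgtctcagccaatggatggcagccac
A CARE motif was also found in the windows of Jdp2, Slc1a4, Slc7a11 and Nupr1, which were higher, and of Vldlr, which was lower, and an ERSE in that of Ero1b. These genes were named for their change, so nothing follows from that number.

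In ER translocation 4 of 12 genes were higher and 0 were lower (median 0.09). Sec63, which couples BiP to the channel, rose by 0.45 (limma adjusted p = 0.000674) on chromosome 10, but its value of 0.10 after re-centring was not called. Ssr3, a subunit of the translocon-associated complex, rose by 0.34 (limma adjusted p = 0.0117), but its value of 0.17 after re-centring was not called. Spcs1 and Spcs3, signal peptidase subunits named after their values were seen, had log2 fold changes of 0.33 and 0.30. After re-centring 1 was higher, Spcs3 (0.24), and 1 was lower, Ssr2 (-0.29), which was named after its values were seen.

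Of 10 cytosolic heat shock genes, which serve protein folding outside the ER, 1 was higher, Hsp90aa1 (log2 fold change 0.36, limma adjusted p = 0.0172), and 1 was lower, Hsph1 (-0.64, limma adjusted p = 0.00216), with a median of 0.17. The higher count was 4 without cxC26 scr tumor 2 and 0 without cxC26 scr tumor 4. After re-centring 0 were higher, with Hsp90aa1 at 0.26 (limma adjusted p = 0.106), and Hsph1, on chromosome 5, was still lower at -0.39. Of 6 mitochondrial chaperones and proteases 0 were higher and 2 were lower, Hspd1 (-0.37, limma adjusted p = 0.0138) and Hspe1 (-0.28, named after its values were seen), both on chromosome 1 and neither called after re-centring. Only 1 of the pair was called without cxC26 scr tumor 2 or 4 or without cxC26 IL6KOs1 tumor 1, 3 or 4.

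**Figure D5:**
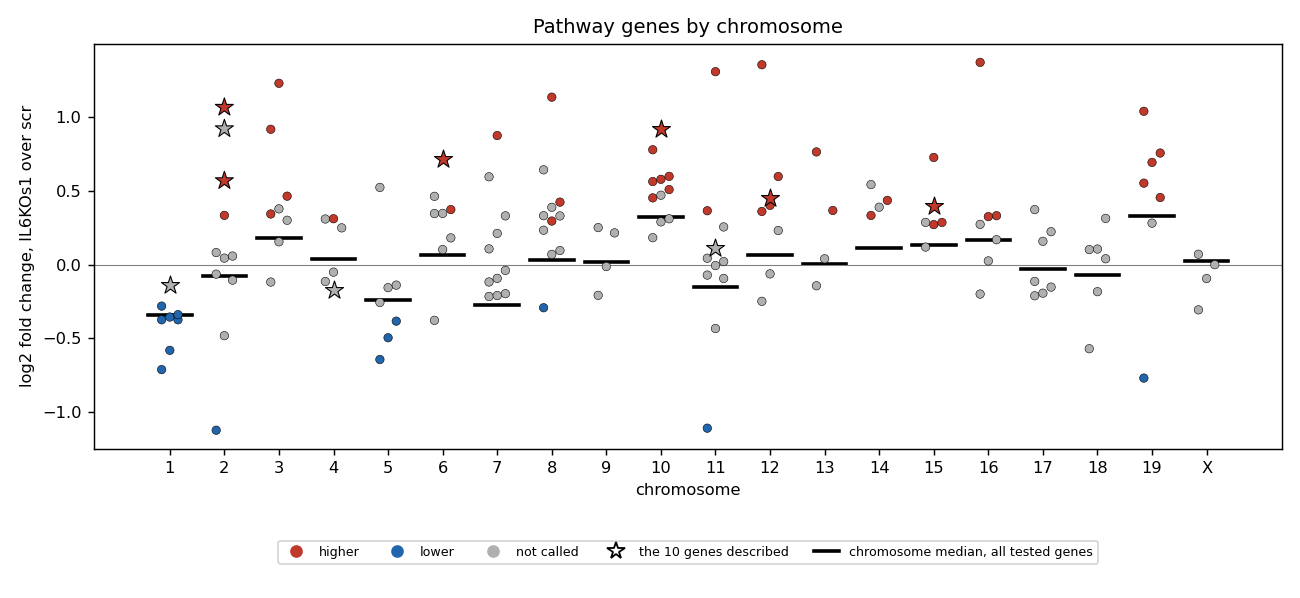
Log2 fold change of the tested pathway genes (dots) and of the 10 genes described (stars) by chromosome, cxC26 IL6KOs1 over cxC26 scr, colored by call as higher (red), lower (blue) or not called (grey), with black bars at the median of all tested genes of the chromosome. The pathway genes of chromosome 1 lie below 0 and most of those on chromosomes 10 and 19 lie above it.

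Markers of some other cells moved with the groups. The counts stand beside 19.1% higher and 20.7% lower of all tested genes. All 6 macrophage markers tested were higher, with a summed level of 345 to 406 CPM in the cxC26 scr tumors and 622 to 1150 CPM in the cxC26 IL6KOs1 tumors. All 4 T cell markers tested were higher, and 3 of 5 plasma cell and B cell markers tested were higher. Sums were taken over all listed markers, with those below the filter. They were 1.05 to 3.21 against 9.02 to 17.0 CPM for T cells, and 21.8 to 34.0 against 53.8 to 669 CPM for plasma and B cells. The latter sum includes Prdm1, with a mean of 4.31 log2 CPM in the cxC26 scr tumors and 3.45 in the cxC26 IL6KOs1 tumors. Secretory cells such as plasma cells are known for high ER chaperone levels. The 3 higher plasma cell and B cell markers were Jchain, Igkc and Ighm, with log2 fold changes of 4.91, 5.69 and 3.10. Prdm1 and Cd79a were not called, and the other 6 on the list did not pass the filter. cxC26 IL6KOs1 tumor 1 had the highest macrophage and plasma cell sums. It was the lowest of its group in Asns, Chac1 and Hspa5 and the highest in Atf4, Atf3 and Xbp1. Without this tumor the count of higher genes among the 10 was 6 as before. cxC26 IL6KOs1 tumors 2 to 4 still had macrophage sums of 622 to 790 CPM, above every cxC26 scr tumor. That count is therefore no test of the part of these cells. Of 3 neutrophil markers tested 1 was higher, of 5 endothelial markers 1 was lower, and of 5 fibroblast markers 1 was higher and 1 was lower. The 5 skeletal muscle markers were not called, with 7.83 to 153 CPM in sum against 21.2 to 311 CPM. Of 4 colonic epithelial markers tested 2 were higher and 1 was lower. The part of these cells in the changes of the 10 genes was not tested.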

How the data were processed

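RNA sequencing of 8 mouse tumors was analysed, 4 per group, with groups and replicate numbers taken from the sample titles. The authors used Trimmomatic for trimming, Hisat2 for alignment to mm10, featureCounts for counting and limma-voom for normalization, and the deposited values are log2 CPM. Tool versions other than bcl2fastq 2.17, named in the submitters' processing notes, the annotation and the strand setting are not given in the sources used here. Whole reads were recovered from these values (100% within 0.01 of a whole number), so depth is known.

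Values were compared with limma 3.58.1 in R 4.3.3 (lmFit, then eBayes with a variance trend, no covariates) over the 13262 genes that reached 1 CPM in 4 or more tumors, with Benjamini-Hochberg adjustment and a threshold of 0.05. For single values an exact two-sided permutation test over all splits of the tumors was added. The method was tested on simulated data with a far smaller share of changed genes than was called here. That run does not show how the fit behaves when so many genes change. The 10 genes, the pathway and marker lists and the motifs were chosen with earlier results of these data known. Besides the 10 genes, Il6, Gdf15 and Fgf21, up to 2 genes with the largest rise and 2 with the largest fall were named per pathway list, among those called whose mean reached 3 log2 CPM and whose groups did not overlap. Re-centring on the chromosome median subtracted, in each tumor, the median level of the tested genes of the same chromosome. Positions and promoters came from RefSeq GRCm38.p6. Transcript lengths, strands and exon counts came from GENCODE, for the longest protein-coding transcript of each gene. Same-numbered tumors came from different mice. Depth sets the counting error of low genes such as Trib3.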

Additional observations from a re-analysis of the deposited data

Results flagged for a closer look

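Dixon's criterion at the 95% level was applied to 82 sets of 4 tumors (1 gene in 1 group), and in 3 of them a tumor stood far from the rest, where chance gives about 1 in 20, or 4.1. Ero1b was low in cxC26 IL6KOs1 tumor 2, with 4.58 log2 CPM, below the 4.80 to 4.83 of the others. Uggt1 was high in cxC26 scr tumor 1, at 8.08 log2 CPM against 7.86 to 7.89. Il6 was high in cxC26 IL6KOs1 tumor 3, at 2.46 log2 CPM, while the others had 1.99 to 2.04. None of the 10 genes described had such a tumor.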

How the results depend on the processing

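The count of 6 higher genes among the 10 was 4 to 7 under each alternative to the processing, apart from a 2-fold minimum, which left 1, and the count of lower genes was 0 under all of them. It was 5 to 7 with each tumor left out in turn. Over all alternatives, 152 of 169 fold changes of the 10 genes kept their direction and their side of the threshold, 8 lost the call, 5 gained it and 4 turned in direction. The 4 were those of Atf3, which was not called in any setting, with a log2 fold change of 0.19 after re-centring on the chromosome median and from -0.49 to 0.13 with each tumor left out (0.12 without cxC26 scr tumor 2, 0.13 and 0.04 without cxC26 IL6KOs1 tumors 3 and 4). Without a filter on low values, over 27179 genes, Asns (limma adjusted p = 0.0981) and Hspa5 (0.0716) were not called, and without a variance trend Asns was not (0.0614). Trib3 was called with the replicate number as a block (0.0332), with precision weights on the recovered reads (0.0468), after re-centring on the sample median (0.0496) or the chromosome median (0.0439), and without cxC26 scr tumor 1. With the block the count of higher genes was 7 and that of lower genes 0. The same-numbered tumors share only a number, and the correlations of their deviations were -0.06, 0.06, 0.02 and -0.06. The log2 fold change of Il6 was -2.56 to -2.36 with each tumor left out.

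As 1 subclone stands for the loss of IL-6, clone and knockout cannot be told apart. Depth limits the lowest genes, such as Fgf21.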
